A study of Bos taurus with 24 samples.

Results

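The 8 inhibin, activin and follistatin genes were followed through bovine granulosa cell maturation: the subunit genes INHA, INHBA and INHBB, the binding proteins FST and FSTL3, the co-receptor TGFBR3 and the receptors ACVR2A and ACVR2B. They were chosen by name, and all 8 of 8 were found among the 27607 genes of the deposited table and passed the filter on low counts. RNA had been sequenced from cow (Bos taurus) cells in 5 groups and 24 libraries: granulosa cells of secondary follicles (secondary_GC, 4 libraries), cumulus cells of early antral follicles (early_CC, 5), mural granulosa cells of early antral follicles (early_MGC, 5), and, at the late antral stage, cumulus cells (late_CC, 5) and mural granulosa cells (late_MGC, 5). The study asks which of these cells, cultured with stripped oocytes, can rebuild the thin processes that reach the oocyte, and how their transcriptomes differ. The labels name no treatment, genotype, breed or age for any group. Replicates are not said to be separate animals, so p-values measure only the spread between these libraries, which may be technical.

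Inhibins and activins are secreted dimers of the TGF-beta family. An alpha subunit joined to a beta subunit makes an inhibin, which lowers follicle-stimulating hormone release from the pituitary, and a pair of beta subunits makes an activin, which raises it and also acts inside the follicle. Follistatin binds activin and blocks it, type II activin receptors bind the ligand and signal through SMAD2 and SMAD3, and betaglycan, the product of TGFBR3, lets inhibin hold the type II receptor away from activin. Granulosa cells are the main ovarian source of the alpha and beta subunits.

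Levels are CPM, the counts of a gene divided by the library's total and scaled to 1000000. Where a log2 fold change stands with a standard error (SE), that SE was worked back from edgeR's quasi-likelihood test. It is the size of the log2 fold change over the square root of the test's F statistic. The p given is that of the same test after adjustment over 14298 genes, unless another fit is named. A gene was called where the adjusted p was under 0.05. Where libraries of different groups are said not to overlap, this is a description. The share of all genes that separate in the same way was not counted. Total counts ran from 8379801 to 31762400 per library. Late_MGC 3, late_CC 3 and early_MGC 4 correlated least with the other libraries of their own group (mean 0.889, 0.933 and 0.954), and results are given with all 24 libraries and again without these 3, in a fit of 14179 genes. Secondary_GC 2, at 0.950, correlated less with its group than early_MGC 4 did and was kept, the 3 having been taken from earlier results of these data. In late_MGC 3 the granulosa receptor gene FSHR stood at 10.6 CPM, against 302 to 381 CPM in the other late_MGC libraries, and 10 granulosa markers summed to 325 CPM, against 1940.1 to 2271 CPM. AMH, CYP19A1, HSD17B1, NR5A1 and FOXL2 were also below all the others. The rest of the list differed less: NR5A2 had 239 CPM (360 to 592 CPM in the others), GATA4 50.3 CPM (67.0 to 81.2 CPM) and WT1 3.32 CPM (3.34 to 4.77 CPM). AMHR2, at 0.429 CPM, lay within the others' range. Late_MGC 3 had 2138 CPM of 9 theca and stroma markers, against 202 to 365 CPM, with LUM at 1621 CPM. CYP17A1, which defines theca, was at 0.161 CPM. INSL3 alone of that list was lower in late_MGC 3, at 1.88 CPM against 190 to 349 CPM. In late_CC 3 the granulosa markers summed to 1539 CPM, against 4248 to 5067 CPM in the other late_CC libraries. The theca and stroma markers summed to 152 CPM, against 500.0 to 673 CPM. Of these, INSL3 was at 26.9 CPM in late_CC 3, against 382 to 597 CPM, while PDGFRA was higher there, at 79.5 CPM against 14.25 to 29.5 CPM. FSHR averaged 307 CPM in secondary_GC, 337 CPM in early_CC, 260.1 CPM in early_MGC and 359 CPM in late_CC, and CYP17A1 was at 0 in all of these. Other theca and stroma markers were not: over the same groups INSL3 averaged 186, 94.2, 106 and 402 CPM, and LUM 17.3, 211, 34.65 and 43.4 CPM. Over secondary_GC, early_CC, early_MGC, late_CC and late_MGC in turn, the theca and stroma markers (6 to 9 of 9 with a count) summed to 176 to 387, 187 to 766, 111 to 312, 152 to 673 and 202 to 2138 CPM. The 7 endothelial markers (3 to 6 with a count) summed to 28.6 to 37.4, 11.3 to 26.9, 25.2 to 46.3, 3.87 to 11.3 and 2.09 to 26.3 CPM. The 7 blood markers (1 to 6 with a count) summed to 1.88 to 7.16, 1.28 to 2.68, 1.86 to 9.79, 1.87 to 72.2 and 0.601 to 1.93 CPM, with the haemoglobin gene HBA averaging 43.1 CPM in late_CC and HBB at 0 throughout. The 8 oocyte markers (1 to 5 with a count) summed to 3.47 to 12.7, 8.51 to 20.3, 1.79 to 7.41, 9.0 to 79.5 and 21.4 to 54.1 CPM, mostly of KIT, with BMP15 at 0 throughout. The part of these markers in the results was not tested. In bulk libraries fewer cells of a type and less RNA per cell cannot be told apart.

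Positions are those of the table's Ensembl annotation of ARS-UCD1.2, over exons. INHA, the alpha subunit (ENSBTAG00000009972), lies on chromosome 2 at 107501784 to 107504801, plus strand, and INHBB, the beta B subunit (ENSBTAG00000049058), on the same chromosome at 72108054 to 72113653, plus strand. INHBA, the beta A subunit (ENSBTAG00000048508), lies on chromosome 4 at 79288772 to 79302445, plus strand. FST, follistatin (ENSBTAG00000003329), lies on chromosome 20 at 25580150 to 25586931, minus strand, and FSTL3, a related activin-binding protein (ENSBTAG00000003018), on chromosome 7 at 43279471 to 43285849, plus strand. TGFBR3 (ENSBTAG00000024269) lies on chromosome 3 at 51501752 to 51709606, plus strand. ACVR2A (ENSBTAG00000018114) lies on chromosome 2 at 48279649 to 48374634, minus strand, and ACVR2B (ENSBTAG00000018105) on chromosome 22 at 11825773 to 11855763, plus strand. Both encode type II activin receptors. The INHBA model overlapped its RefSeq counterpart by 0.556 of their union, against 0.956 to 1 for the other 7. A further model inside the RefSeq span of INHBA, at 79279928 to 79285525, reached at most 15.7 CPM. Counting ignored strand, and a 50-base antisense model within INHBA held at most 0.19 CPM.

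FST had the highest median level per kilobase of the 8 genes in every group, and INHA the next. Per kilobase of exon, the median over libraries of FST was 792 CPM in secondary_GC, 1788 CPM in early_CC, 891 CPM in early_MGC, 3370 CPM in late_CC and 2268 CPM in late_MGC. INHA ran at 753, 1105, 350.0, 2120.0 and 1881 CPM per kilobase over the same groups. INHBA stood at 17.4, 76.7, 16.7, 2103 and 339 CPM per kilobase, so it was far under INHA before the late antral stage and about level with it in late_CC. Its exon length is that of the model with the overlap of 0.556 given above. INHBB had 27.6, 21.7, 15.8, 443 and 92.6 CPM per kilobase, and FSTL3 had 31.1, 26.7, 9.33, 20 and 1.78 CPM per kilobase. TGFBR3, ACVR2A and ACVR2B had group medians between 1.48 and 5.08 CPM per kilobase in every group. Together the 8 genes took 0.278% to 0.378% of counts in secondary_GC libraries, 0.545% to 0.656% in early_CC, 0.240% to 0.367% in early_MGC, 0.485% to 2.98% in late_CC and 0.0554% to 1.18% in late_MGC.

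**Figure D1:**
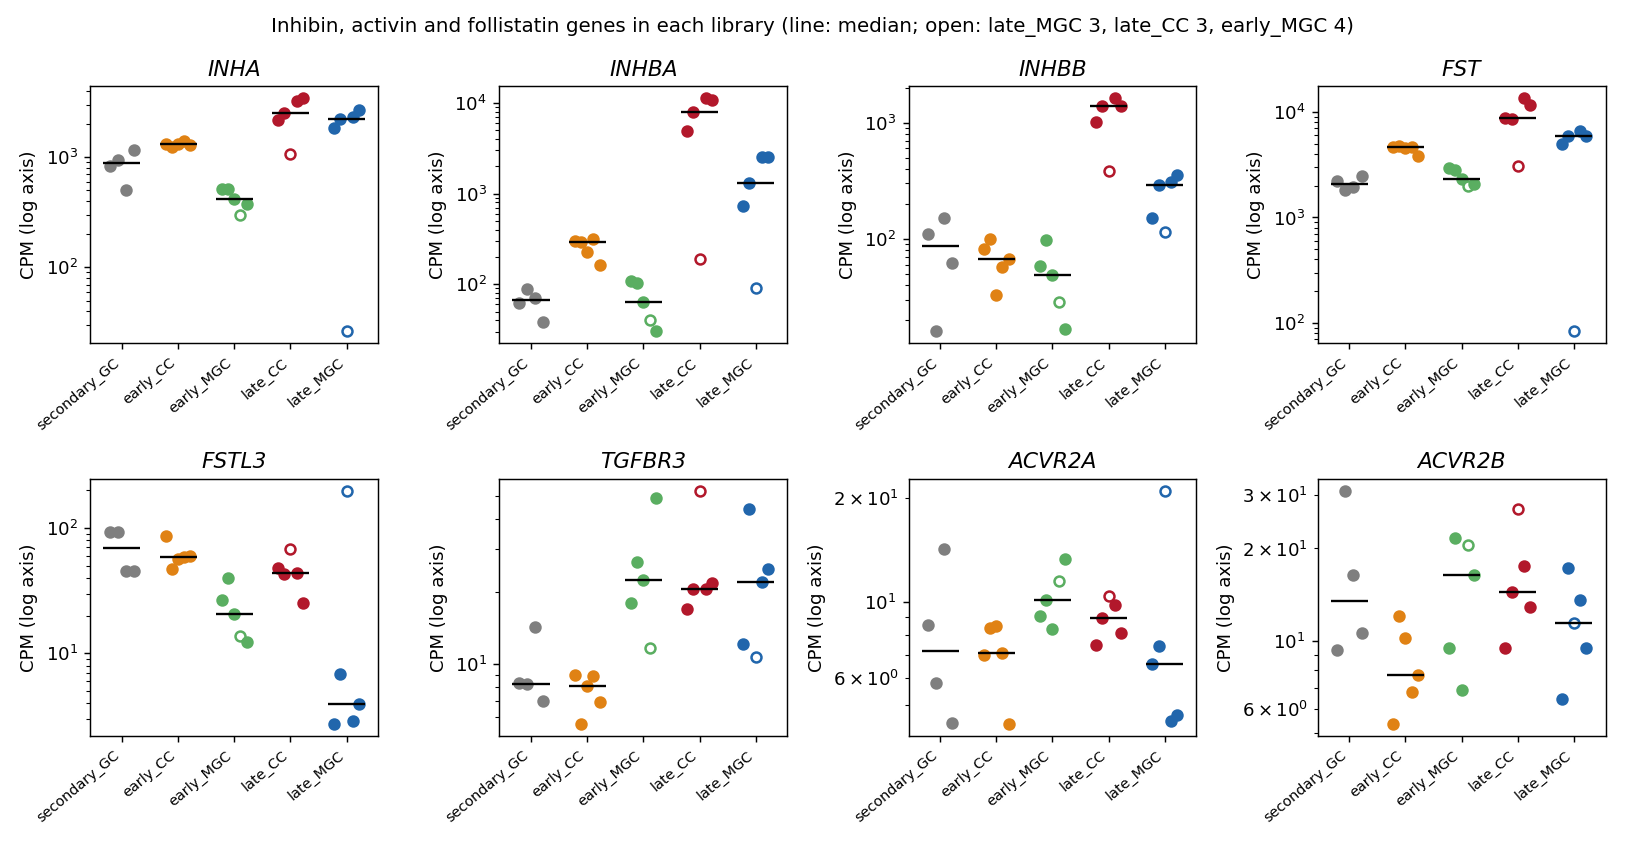
CPM (log axis) of the 8 genes in each of the 24 libraries, by group in order of stage; points are libraries, lines are group medians, and open points are late_MGC 3, late_CC 3 and early_MGC 4. INHBA and INHBB stand highest in late_CC, and late_MGC 3 stands apart from its group for INHA, INHBA, FST, FSTL3 and ACVR2A.

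Between early and late antral follicles the beta subunit genes rose in both compartments. The mean CPM of INHBA was 27-fold and that of INHBB 17.1-fold higher in late than in early cumulus cells, and 20.7-fold and 4.82-fold higher in late than in early mural cells. The alpha subunit INHA was also called higher in mural cells, and the co-receptor TGFBR3 and the receptor ACVR2B in cumulus cells. The calls of INHA and ACVR2B were lost in some settings, as given below. Late_CC against early_CC had 4 of 8 higher and 0 lower, where 45.2% of all genes tested were called and 22.5% were higher. Late_MGC against early_MGC had 3 of 8 higher and 0 lower, where 19.1% of all genes were called and 9.76% were higher. The median log2 fold change of the 8 was 0.98 in cumulus cells, against 0.04 over all genes, and 0.99 in mural cells, against 0.05 over all genes. With the 3 libraries left out, 5 were higher in cumulus cells (50% of all genes called): INHBA, INHBB, INHA, FST and TGFBR3, and not ACVR2B. In mural cells 4 were higher and 1 lower (23.8% of all genes called).

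INHBA had 4890, 8039, 191, 11334 and 10799 CPM in the late_CC libraries, against 303, 293, 230, 316 and 163 CPM in early_CC. Late_CC 3 lay among the early_CC values and the other 4 were far above them. INHBA rose in late_CC by a log2 fold change of 4.71 ± 0.83 (SE, edgeR adjusted p = 0.000109), and by 5.03 ± 0.42 without the 3 libraries (adjusted p = 2.76e-09). In mural cells it had 726, 1296, 89.8, 2517 and 2572 CPM in late_MGC, against 109, 104, 63.7, 40.7 and 30.2 CPM in early_MGC. Here late_MGC 3 overlapped the early_MGC values and the other 4 did not. The rise was 4.49 ± 0.82 (adjusted p = 0.000634), or 4.69 ± 0.45 without the 3 libraries (adjusted p = 6.68e-08).

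INHBB, the beta B subunit gene, had 1023, 1383, 383, 1625 and 1386 CPM in late_CC, against 82.2, 99.2, 32.7, 56.9 and 67.7 CPM in early_CC. All late_CC libraries were above all early_CC libraries, and late_CC 3 was again the lowest. The rise was 4.08 ± 0.56 on the log2 scale (edgeR adjusted p = 7.24e-06). In late_MGC INHBB had 152, 289, 114, 308 and 353 CPM, against 58.7, 98.5, 49.3, 28.8 and 16.8 CPM in early_MGC, again with no overlap. It rose by 2.38 ± 0.52 (adjusted p = 0.00291), and no single library ended either call.

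INHA, the alpha subunit gene that makes inhibin from either beta subunit, had 1846, 2223, 26.3, 2319.7 and 2664 CPM in late_MGC, against 511, 518, 414, 299 and 375 CPM in early_MGC. Late_MGC 3 was below every early_MGC library and the other 4 were above all of them. INHA rose in late_MGC by 2.24 ± 0.59 (edgeR adjusted p = 0.0101), or 2.50 ± 0.22 without the 3 libraries (adjusted p = 9.89e-09), but the call was lost in a fit of these groups alone (2.17, adjusted p = 0.105) and with limma-voom (1.25, adjusted p = 0.273). In cumulus cells INHA had 2167, 2506, 1076, 3205 and 3425 CPM in late_CC, against 1306, 1228, 1311, 1409 and 1290.2 CPM in early_CC. Late_CC 3 was below all early_CC libraries, and the others were above. The difference of 0.91 ± 0.56 was not called over all libraries (adjusted p = 0.197) and was called without the 3 libraries (1.08 ± 0.20, adjusted p = 8.27e-05) and in a fit of these groups alone (0.87, adjusted p = 0.011).

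FST, the activin-binding protein, had 5008, 5985, 83.0, 6564 and 5952 CPM in late_MGC, against 2929.7, 2802, 2339, 1970.0 and 2064 CPM in early_MGC. Late_MGC 3 was lowest of all, and the other 4 were above every early_MGC library. The difference of 1.09 ± 0.55 missed the threshold (edgeR adjusted p = 0.176), and without late_MGC 3, where 24.1% of all genes were called, FST was called higher (1.41 ± 0.25, adjusted p = 0.00016). In late_CC it had 8842, 8624, 3044, 13529 and 11671 CPM, against 4701, 4806, 4540.5, 4692 and 3849 CPM in early_CC. Late_CC 3 was below the early_CC libraries and the others above them. The difference was 1.0 ± 0.55 (adjusted p = 0.143), and FST was called without the 3 libraries (1.21 ± 0.18, adjusted p = 6.98e-06) and in a fit of these groups alone (0.96, adjusted p = 0.0187).

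FSTL3 also binds activins, and its direction in mural cells differed with and without late_MGC 3. It had 2.75, 6.89, 198, 2.88 and 3.94 CPM in late_MGC, against 26.8, 40.1, 20.6, 13.7 and 12.4 CPM in early_MGC. The 4 other late_MGC libraries were below every early_MGC library and late_MGC 3 was above them. The log2 fold change was 0.88 ± 0.85 over all libraries (edgeR adjusted p = 0.518), and FSTL3 fell without late_MGC 3 (-2.35 ± 0.36, adjusted p = 4.32e-05). In late_CC it had 47.6, 42.7, 67.7, 44.1 and 25.4 CPM, against 86.2, 47.1, 56.3, 59.0 and 59.6 CPM in early_CC. These ranges overlapped, and the difference of -0.42 ± 0.84 was not called (adjusted p = 0.709).

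TGFBR3, the inhibin co-receptor gene, rose in cumulus cells. It had 16.9, 20.5, 52.7, 20.4 and 21.6 CPM in late_CC, against 8.94, 5.61, 8.09, 8.88 and 6.95 CPM in early_CC. The groups did not overlap, and late_CC 3 was the highest library. The rise was 1.81 ± 0.38 (edgeR adjusted p = 0.000499), or 1.34 ± 0.28 without the 3 libraries (adjusted p = 0.000351). In mural cells TGFBR3 had 12.1, 44.1, 10.7, 21.9 and 24.8 CPM in late_MGC, against 17.8, 26.7, 22.4, 11.7 and 49.0 CPM in early_MGC. The ranges overlapped throughout and the difference was -0.02 ± 0.37 (adjusted p = 0.975).

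The type II receptors stood at low levels. ACVR2B had 9.50, 14.4, 26.9, 17.5 and 12.9 CPM in late_CC, against 5.35, 12, 10.2, 6.81 and 7.71 CPM in early_CC. The ranges overlapped and late_CC 3 was the highest. ACVR2B rose in late_CC by 0.97 ± 0.36 (edgeR adjusted p = 0.0317), a call lost without late_CC 3 (0.66, adjusted p = 0.136) or without early_CC 1, 4 or 5 (adjusted p = 0.082, 0.0659 and 0.0651). In late_MGC it had 6.47 to 17.3 CPM, against 6.89 to 21.7 CPM in early_MGC (-0.29 ± 0.36, adjusted p = 0.627). ACVR2A ran from 7.5 to 10.4 CPM in late_CC, against 4.42 to 8.47 CPM in early_CC (0.34 ± 0.34, adjusted p = 0.430). It had 6.57, 7.43, 21, 4.51 and 4.70 CPM in late_MGC, against 9.07, 10.1, 8.33, 11.5 and 13.3 CPM in early_MGC. Apart from late_MGC 3, the highest library of all, late_MGC was below early_MGC, and the difference of -0.19 ± 0.34 was not called (adjusted p = 0.747).

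The interaction asks whether the change between stages differed between cumulus and mural cells. TGFBR3 was called, with a change 1.83 ± 0.53 larger on the log2 scale in cumulus cells (edgeR adjusted p = 0.0105), 1 of 8 where 31.4% of all genes tested were called. It was 1.32 ± 0.41 without the 3 libraries (adjusted p = 0.0143) and 1.17 without late_MGC 3 and late_CC 3 (adjusted p = 0.0296). INHBB had 1.71 ± 0.71 (adjusted p = 0.0705). It was called in 2 of 20 fits with 1 library left out, without late_CC 3 (1.92, adjusted p = 0.0398) and without early_MGC 5 (1.95, adjusted p = 0.033). ACVR2B had 1.26 ± 0.51 (adjusted p = 0.0627). It was called in 5 of the 20, without early_CC 2, early_MGC 1, early_MGC 3, late_CC 1 or late_MGC 2 (adjusted p = 0.0477, 0.0459, 0.032, 0.0329 and 0.0404). INHA had -1.33 ± 0.79 (adjusted p = 0.213) and FSTL3 -1.30 ± 1.2 (adjusted p = 0.437). Without late_MGC 3, where 36.4% of all genes were called, INHA was called at -1.65 ± 0.33 (adjusted p = 0.000356), FSTL3 at 1.93 ± 0.47 (adjusted p = 0.00226) and ACVR2A at 1.05 ± 0.40 (adjusted p = 0.0426). With the 3 libraries left out, 3 of 8 were called, where 34.9% of all genes were. INHBA had 0.23 ± 1.0 (adjusted p = 0.890) and FST -0.10 ± 0.77 (adjusted p = 0.942).

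**Figure D2:**
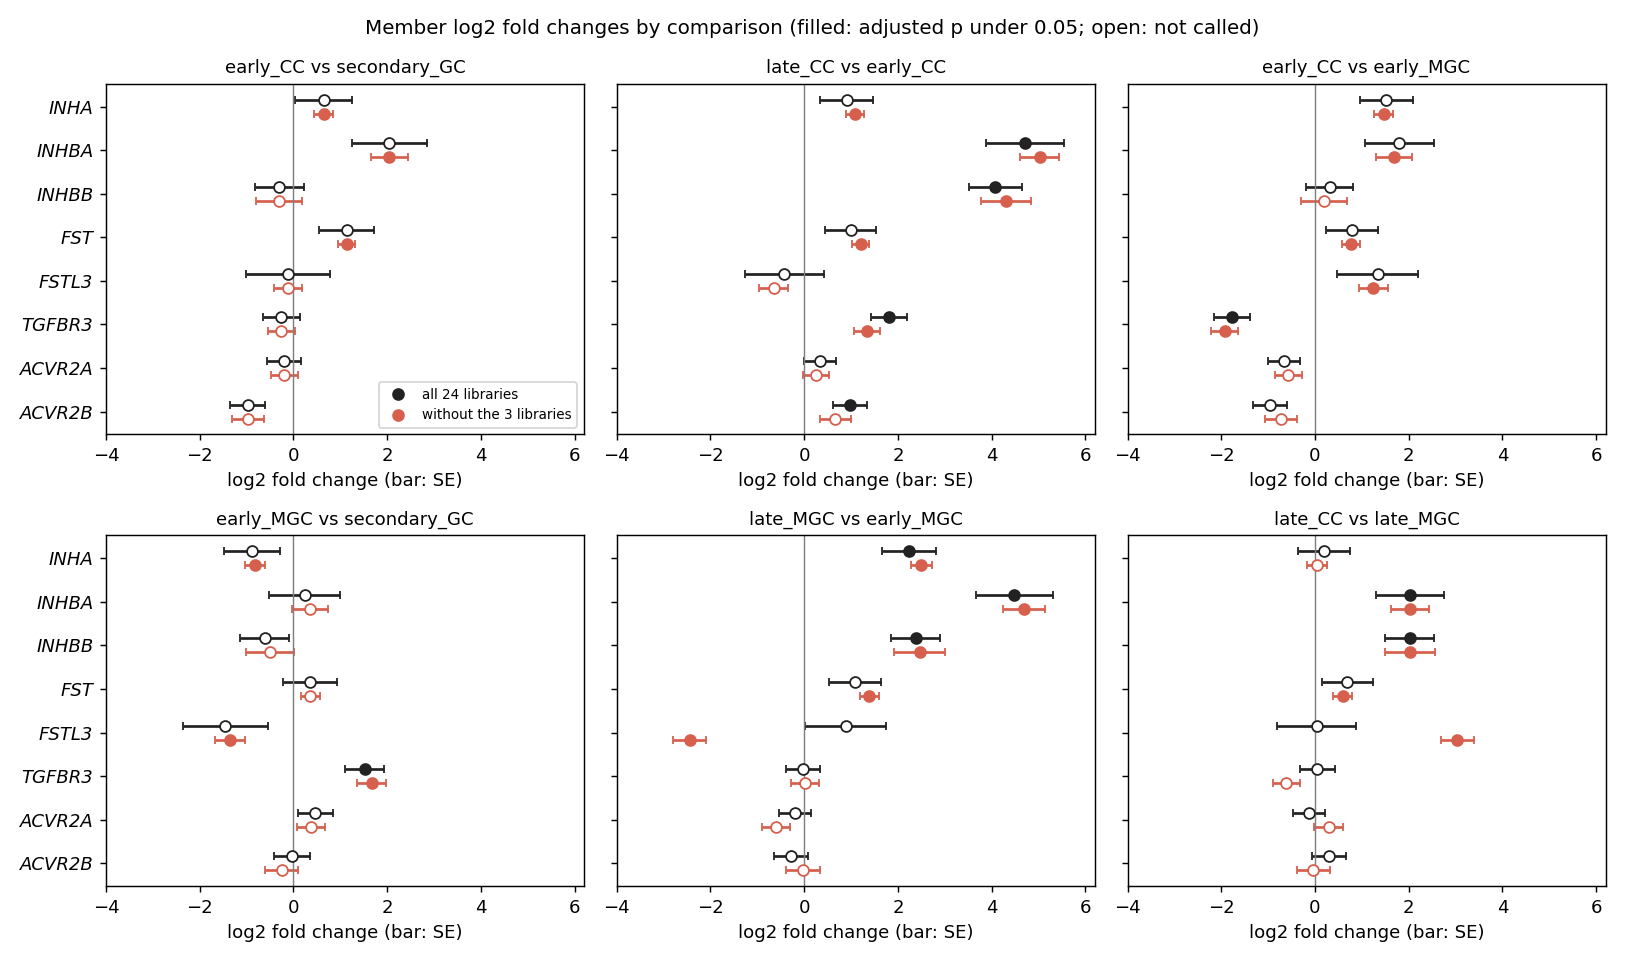
Log2 fold change (points) with SE (bars) of the 8 genes in 6 comparisons, with all 24 libraries (black) and without the 3 libraries that stand apart (red); filled points are called. INHBA and INHBB are called in both late against early comparisons under both settings, and FSTL3 in late_MGC against early_MGC is at 0.88 with all libraries and at -2.44 without the 3.

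Within late antral follicles, both beta subunits were higher in cumulus than in mural cells, with nearly the same log2 fold change. INHBA, with the library values given above, averaged 7050.5 ± 4612 CPM in late_CC and 1440.0 ± 1095 CPM in late_MGC (SD, n = 5 each), and INHBB averaged 1160.1 ± 485 CPM in late_CC and 243 ± 104 CPM in late_MGC. Their log2 fold changes were 2.03 ± 0.73 (edgeR adjusted p = 0.0325) and 2.02 ± 0.52 (adjusted p = 0.00356). INHBB libraries did not overlap. INHBA of late_CC 3, at 191 CPM, was below every late_MGC library except late_MGC 3, at 89.8 CPM. These were 2 of 8 genes called, both higher, where 39.7% of all genes were called and 18.9% were higher. The INHBA call was lost without late_CC 2, 4 or 5 (adjusted p = 0.0534, 0.0722 and 0.0717), without late_MGC 1 or 2 (adjusted p = 0.0775 and 0.0593), in a fit of these groups alone (adjusted p = 0.111), with limma-voom (adjusted p = 0.0779) and with no filter on low counts (adjusted p = 0.0651). With the 3 libraries left out it was 2.04 ± 0.40 (adjusted p = 0.000262).

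The binding-protein genes were not called between late compartments with all 24 libraries. FSTL3 averaged 45.5 ± 15.1 CPM in late_CC and 42.9 ± 86.7 CPM in late_MGC (0.03 ± 0.84, edgeR adjusted p = 0.981), with 198 CPM in late_MGC 3. Without that library late_MGC averaged 4.11 ± 1.93 CPM (n = 4), every late_CC library was above it, and FSTL3 was called higher in late_CC (3.27 ± 0.38, adjusted p = 2.18e-07), where 41.8% of all genes were called. FST averaged 9142 ± 3974 CPM in late_CC and 4718 ± 2650.5 CPM in late_MGC (0.69 ± 0.55, adjusted p = 0.329). FST was not called without late_MGC 3 alone (adjusted p = 0.231) and was called higher in late_CC without the 3 libraries (0.59 ± 0.19, adjusted p = 0.016). INHA averaged 2476 ± 934 CPM in late_CC and 1816 ± 1042 CPM in late_MGC (0.19 ± 0.56, adjusted p = 0.814). TGFBR3, ACVR2A and ACVR2B had log2 fold changes of 0.05, -0.14 and 0.31, none called. Without the 3 libraries 4 of 8 were called, all higher, where 42.1% of all genes were.

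In early antral follicles TGFBR3 was lower in cumulus than in mural cells and was the only one of the 8 called, where 13.1% of all genes tested were. TGFBR3 averaged 7.69 ± 1.41 CPM in early_CC and 25.5 ± 14.3 CPM in early_MGC (SD, n = 5 each). All early_CC libraries were below all early_MGC libraries, and TGFBR3 fell by 1.78 ± 0.38 on the log2 scale (edgeR adjusted p = 0.00388). Every early_CC library was above every early_MGC library for INHA, INHBA, FST and FSTL3. INHA averaged 1309 ± 65.1 CPM in early_CC and 423 ± 92.8 CPM in early_MGC (1.52 ± 0.57, adjusted p = 0.0826), and INHBA 261 ± 64.1 CPM in early_CC and 69.5 ± 36.0 CPM in early_MGC (1.80 ± 0.73, adjusted p = 0.109).

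FST averaged 4518 ± 386 CPM in early_CC and 2421 ± 430.5 CPM in early_MGC (0.79 ± 0.55, edgeR adjusted p = 0.370). FSTL3 averaged 61.6 ± 14.6 CPM in early_CC and 22.7 ± 11.3 CPM in early_MGC (1.34 ± 0.86, adjusted p = 0.331). These 4 genes did not overlap between the groups and were not called in the fit of all 24 libraries. How many of all genes separate in this way was not counted, so the separation alone does not set these genes apart. That fit estimates spread over all groups together, and the cause of the missed calls was not tested. In the fit without late_MGC 3, a library of neither group, all 4 were called higher in early_CC: INHA (adjusted p = 0.000113), INHBA (adjusted p = 0.0441), FST (adjusted p = 0.0201) and FSTL3 (adjusted p = 0.00451). That made 5 of 8 genes called, where 18.1% of all genes were. The same 5 genes were called without the 3 libraries, where 17.5% of all genes were. The fit of early_CC and early_MGC alone called 7 of 8, where 23.4% of its 12980 genes were called, adding the lower receptors ACVR2A (-0.70, adjusted p = 0.0415) and ACVR2B (-0.98, adjusted p = 0.0279). ACVR2B missed the threshold in the fit of all libraries (-0.95 ± 0.36, adjusted p = 0.0844) and passed without early_MGC 3 (-1.13, adjusted p = 0.0434). INHBB averaged 67.7 ± 25.2 CPM in early_CC and 50.4 ± 31.6 CPM in early_MGC (0.31 ± 0.50, adjusted p = 0.729).

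Against secondary follicles, TGFBR3 was called higher in early mural cells, 1 of 8 genes where 9.1% of all genes were called, and 0 of 8 genes were called in early cumulus cells, where 1.99% of all genes were. The secondary_GC libraries had 8.29, 8.20, 14.2 and 6.99 CPM of TGFBR3, overlapping early_MGC at 1 library, early_MGC 4. The difference in early_MGC was 1.52 ± 0.41 (edgeR adjusted p = 0.0235), and the call was lost without secondary_GC 1, 2 or 4 (adjusted p = 0.0679, 0.0633 and 0.0921) or early_MGC 5 (adjusted p = 0.0663). It held without the 3 libraries (1.67 ± 0.31, adjusted p = 0.000807), where 13.6% of all genes were called.

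The secondary_GC libraries had 832, 948, 507 and 1163 CPM of INHA. Early_MGC averaged 423 ± 92.8 CPM (n = 5) and secondary_GC 863 ± 274 CPM (n = 4), a difference of -0.88 ± 0.59 (edgeR adjusted p = 0.381). For FSTL3 the secondary_GC libraries had 92.1, 92.4, 45.3 and 45.5 CPM, all above early_MGC, and the difference in early_MGC was -1.45 ± 0.90 (adjusted p = 0.339). Without late_MGC 3, which belongs to neither group, INHA (adjusted p = 0.0163) and FSTL3 (adjusted p = 0.00597) were both called lower in early_MGC. That made 3 of 8 genes called, where 13.4% of all genes were.

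In early cumulus cells INHBA averaged 261 ± 64.1 CPM, against 64.7 ± 20.9 CPM in secondary_GC, whose libraries had 61.4, 88.0, 71.3 and 38.0 CPM. All early_CC libraries were above all secondary_GC libraries, and the difference was 2.05 ± 0.80 (edgeR adjusted p = 0.189, unadjusted p = 0.0181). FST averaged 4518 ± 386 CPM in early_CC and 2109 ± 275 CPM in secondary_GC, whose libraries had 2199.6, 1827, 1959 and 2451 CPM. Again no libraries overlapped, and the difference was 1.14 ± 0.59 (adjusted p = 0.349). INHA did not overlap either (0.64 ± 0.60, adjusted p = 0.655). Of the 8 genes, INHBA and ACVR2B had an unadjusted p under 0.05, ACVR2B with -0.98 ± 0.38 (edgeR adjusted p = 0.183, unadjusted p = 0.0168). Without the 3 libraries FST (adjusted p = 0.00034), INHBA (adjusted p = 0.00178) and INHA (adjusted p = 0.046) were called higher, 3 of 8 where 9.2% of all genes were. Without late_MGC 3 alone, FST was called (adjusted p = 0.00746, 5.25% of all genes), and DESeq2 called 0 of 8 over all libraries.

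Over the whole span, the late groups held more beta subunit RNA than secondary_GC. In late_CC against secondary_GC 5 of 8 genes were called, all higher, where 46% of all genes were called and 22.9% were higher. INHBA was 6.76 ± 1.01 higher on the log2 scale (edgeR adjusted p = 2.34e-05), INHBB 3.78 ± 0.61 (adjusted p = 4.52e-05), FST 2.13 ± 0.62 (adjusted p = 0.0072) and TGFBR3 1.55 ± 0.41 (adjusted p = 0.0038). The fifth, INHA, had 1.55 ± 0.62 (adjusted p = 0.0448), a call lost on leaving out any 1 of the 4 secondary_GC libraries (adjusted p = 0.0921, 0.07, 0.111 and 0.0605) or late_CC 1, 2, 4 or 5 (adjusted p = 0.0545, 0.0616, 0.0764 and 0.087). It was also lost with limma-voom (adjusted p = 0.13), with no filter on low counts (adjusted p = 0.0861) and with RLE scaling (adjusted p = 0.052), and held without the 3 libraries (1.73 ± 0.22, adjusted p = 5.18e-07), where 51% of all genes were called.

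In late_MGC against secondary_GC 3 of 8 genes were called, all higher, where 31.8% of all genes were called and 16.6% were higher. INHBA was 4.73 ± 0.91 higher (edgeR adjusted p = 0.000501) and TGFBR3 1.5 ± 0.41 higher (adjusted p = 0.00729). INHBB, with 110, 16, 150 and 62.2 CPM in the secondary_GC libraries, was 1.77 ± 0.55 higher in late_MGC (adjusted p = 0.0183), a call lost without secondary_GC 4 (1.64, adjusted p = 0.0587) or in a fit of these groups alone (1.70, adjusted p = 0.0643). INHA had 1.36 ± 0.61 (adjusted p = 0.0958), FST 1.44 ± 0.60 (adjusted p = 0.0696) and FSTL3 -0.57 ± 0.89 (adjusted p = 0.664). Without late_MGC 3, INHA (1.68 ± 0.26, adjusted p = 1.81e-05) and FST (1.76 ± 0.27, adjusted p = 1.5e-05) were called higher and FSTL3 was called lower (-3.80 ± 0.39, adjusted p = 8.41e-08), so that 6 of 8 were called where 35.7% of all genes were, and 6 of 8 without the 3 libraries, where 39.6% were.

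The mean CPM of INHBA ran from late_CC down through late_MGC, early_CC and early_MGC to secondary_GC. Late_CC and late_MGC differed (edgeR adjusted p = 0.0325), as did late_MGC and early_CC (adjusted p = 0.0122, 24.9% of all genes called). Early_CC was not told apart from early_MGC, nor early_MGC from secondary_GC. Without late_MGC 3, INHBA was higher in early_CC than in early_MGC (adjusted p = 0.0441). INHBB ran from late_CC through late_MGC, secondary_GC and early_CC to early_MGC. Late_CC differed from late_MGC (adjusted p = 0.00356) and late_MGC from secondary_GC (adjusted p = 0.0183), while the lower neighbours did not pass the test. TGFBR3 had late_CC, early_MGC and late_MGC above secondary_GC and early_CC, with the step at late_MGC over secondary_GC (adjusted p = 0.00729). Neighbours in the orders of INHA, FST, FSTL3, ACVR2A and ACVR2B did not differ over all libraries, with adjusted p between 0.185 and 0.991. Without late_MGC 3, late_MGC was above early_CC (adjusted p = 0.00219) and secondary_GC above early_MGC (adjusted p = 0.0163) for INHA, early_CC above early_MGC for FST (adjusted p = 0.0201), and, for FSTL3, late_CC above early_MGC (adjusted p = 0.0195) and early_MGC above late_MGC (adjusted p = 4.32e-05). ACVR2B averaged 16.8 ± 9.89 CPM in secondary_GC, 8.43 ± 2.69 CPM in early_CC, 15 ± 6.59 CPM in early_MGC, 16.2 ± 6.63 CPM in late_CC and 11.7 ± 4.09 CPM in late_MGC. ACVR2A averaged 8.25 ± 4.34 CPM in secondary_GC and between 7.08 and 10.46 CPM in the antral groups.

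The subunit and binding-protein genes changed their proportions with stage. On the per-kilobase scale, the ratio of the beta subunits INHBA and INHBB together to INHA had a median of 0.0540 in secondary_GC, 0.0846 in early_CC, 0.0927 in early_MGC, 1.13 in late_CC and 0.349 in late_MGC. In late_CC it was 0.876, 1.2, 0.190, 1.28 and 1.13, so 3 of 5 libraries held more beta than alpha subunit RNA per kilobase, and late_CC 3 was the lowest. The INHBA length used is that of a model that overlapped its RefSeq counterpart by only 0.556 of their union. Its part in which side of 1 a library fell was not tested. In late_MGC it was 0.153, 0.229, 2.70, 0.386 and 0.349, and late_MGC 3, with INHA at 26.3 CPM, was the highest. The early and secondary groups lay between 0.0303 and 0.155.

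The ratio of INHBA to INHBB per kilobase had a median of 0.477 in secondary_GC, 3.01 in early_CC, 1.16 in early_MGC, 4.75 in late_CC and 3.91 in late_MGC. Secondary_GC 2, at 4.50, stood away from the other 3 secondary_GC libraries, which lay between 0.389 and 0.5. FST against both beta subunits had a median of 20.5 in secondary_GC, 17.7 in early_CC, 27.5 in early_MGC, 1.48 in late_CC and 3.31 in late_MGC. In late_CC this ratio ran from 1.29 to 6.72, with late_CC 3 the highest, and in late_MGC from 0.527 in late_MGC 3 to 8.0. No late library reached the lowest early or secondary value, 11.2. FST against FSTL3 had medians of 28.2 in secondary_GC, 67.0 in early_CC, 95.5 in early_MGC, 170 in late_CC and 1272 in late_MGC, with 0.353 in late_MGC 3. Since the genes were chosen with results known, no ratio was tested.

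**Figure D3:**
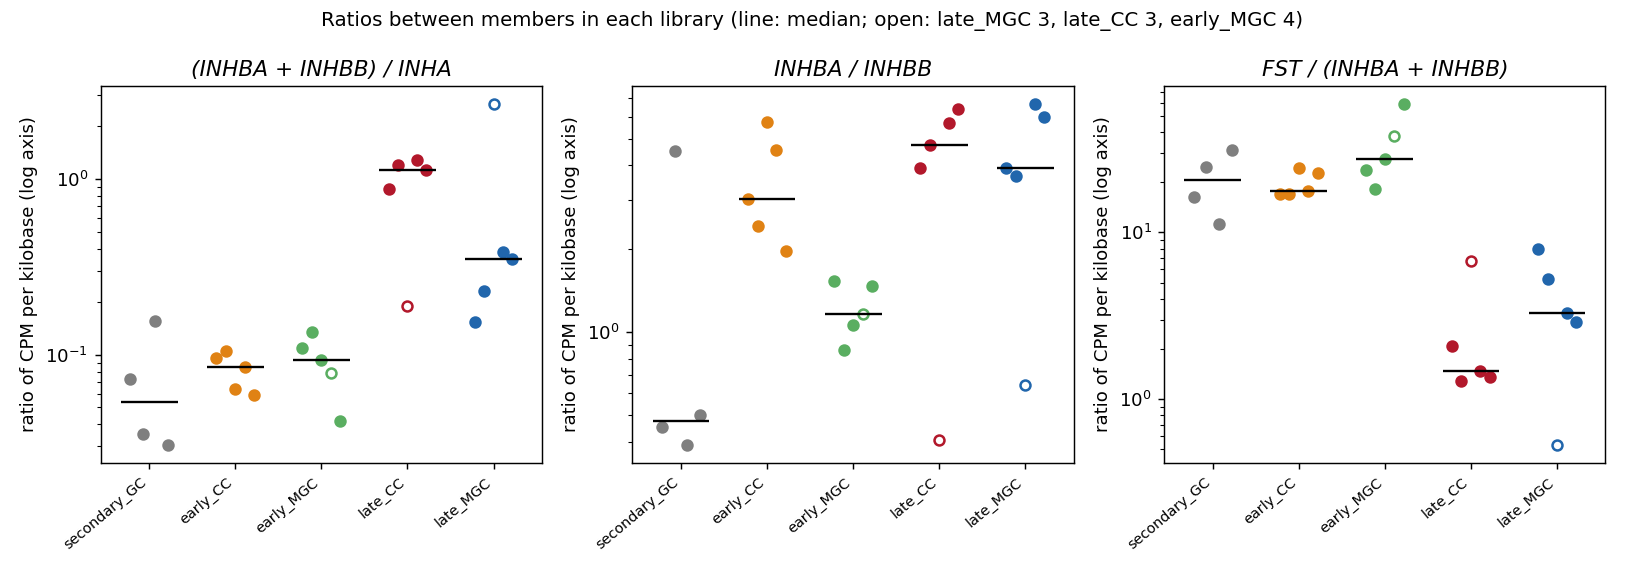
Ratios of CPM per kilobase (log axes) in each library: the beta subunits to INHA, INHBA to INHBB, and FST to the beta subunits, by group in order of stage; lines are medians and open points are the 3 libraries that stand apart. Late_CC has the highest median of the first ratio, 1.13, and the lowest of the third, 1.48.

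Of 24 further pathway genes, 23 were found and 16 passed the filter. INHBC, an activin subunit of the liver, had no count in any of the 24 libraries, a limit of 0.00653 CPM at 3 counts over all of them. ACVR1B, the type I receptor of activins, averaged 0.331 CPM in secondary_GC, 0.0475 CPM in early_CC, 0.441 CPM in early_MGC, 0.172 CPM in late_CC and 0.0120 CPM in late_MGC and was too low to test, as were ACVR1C, INHBE, GDF11, TDGF1 and SMAD7. Among the SMAD genes, whose products carry the signal to the nucleus, SMAD2 averaged 154 CPM in secondary_GC, 223 CPM in early_CC, 175 CPM in early_MGC, 344 CPM in late_CC and 176 CPM in late_MGC, while the group means of SMAD3 lay between 0.772 and 1.03 CPM. At the downstream end of the gene the counted model differed from RefSeq by 4254 bases for SMAD3 and 2982 bases for ACVR1B. The part of this in their low counts was not tested.

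In late_CC against early_CC, where 22.5% of all genes rose, 4 of the 16 rose and 0 fell. PCSK5, a convertase that cuts TGF-beta family precursors, averaged 6.98 ± 2.30 CPM in late_CC and 1.07 ± 0.520 CPM in early_CC (2.70 ± 0.56, edgeR adjusted p = 0.000397). SKIL, a repressor bound to SMADs, averaged 38.4 ± 8.90 CPM in late_CC and 10.7 ± 2.83 CPM in early_CC (1.84 ± 0.30, adjusted p = 2.49e-05). ZFYVE9, which anchors SMAD2 and SMAD3 at endosomes, rose by 1.46 ± 0.27 (adjusted p = 0.000118). PMEPA1, an inhibitor of SMAD signalling, rose by 2.22 ± 0.82 (adjusted p = 0.031), with 58.2 CPM in 1 library, and without the 3 libraries it averaged 3.91 ± 1.15 CPM in late_CC and was not called (0.19 ± 0.41, adjusted p = 0.719).

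In late_MGC against early_MGC, where 9.76% of all genes rose and 9.3% fell, 1 of the 16 rose and 1 fell. ACVR1, a type I receptor, rose by 1.94 ± 0.45 (edgeR adjusted p = 0.00333) and by 1.23 ± 0.40 without the 3 libraries (adjusted p = 0.0246). SKIL fell in mural cells, with 11.7 ± 2.31 CPM in late_MGC and 24.3 ± 11.4 CPM in early_MGC (-0.93 ± 0.29, adjusted p = 0.0266). The interaction, called for 31.4% of all genes, was called for 4 of the 16: SKIL (2.77 ± 0.41, adjusted p = 3.39e-05), PCSK5 (3.52 ± 0.79, adjusted p = 0.00151), ZFYVE9 (1.56 ± 0.38, adjusted p = 0.00301) and SMAD4 (-0.85 ± 0.33, adjusted p = 0.0482). BAMBI, a decoy receptor that blocks signalling, had -0.39 ± 0.82 in late_CC and -2.10 ± 0.85 in late_MGC, neither called. Without the 3 libraries BAMBI averaged 3.13 ± 1.03 CPM in late_CC and 25.8 ± 2.56 CPM in early_CC (-3.06 ± 0.25, adjusted p = 7.25e-10), and 3.78 ± 1.33 CPM in late_MGC and 35.2 ± 6.6 CPM in early_MGC (-2.98 ± 0.25, adjusted p = 3.91e-09).

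**Figure D4:**
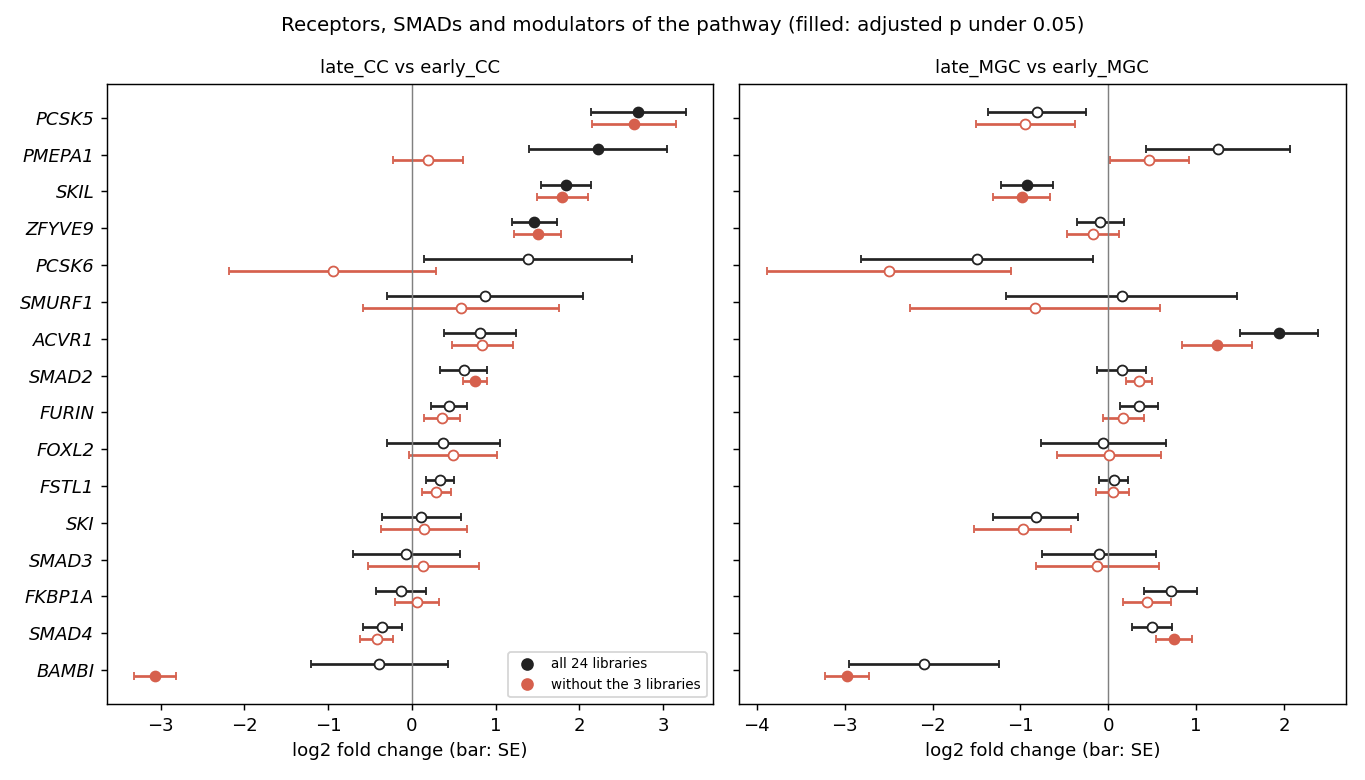
Log2 fold change (points) with SE (bars) of 16 pathway genes in late_CC against early_CC and late_MGC against early_MGC, with all 24 libraries (black) and without the 3 libraries (red); filled points are called. SKIL rises in cumulus cells (1.84) and falls in mural cells (-0.93), and BAMBI is called in both panels without the 3 libraries and in neither with all 24.

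Between late compartments, where 18.9% of all genes were higher and 20.8% lower, 5 of the 16 were higher and 1 lower in late_CC: PCSK5 (2.61), FOXL2 (1.91), a granulosa transcription factor that averaged at most 2.27 CPM in any group, SKIL (1.51), ZFYVE9 (0.92) and SMAD2 (0.72) were higher and SMAD4 (-0.68) lower. Between early compartments (13.1% of all genes called) SKIL alone of the 16 was called, lower in early_CC (-1.26, edgeR adjusted p = 0.00592). Against secondary_GC, early_CC (1.99% of all genes called) had 0 higher and 2 lower, PCSK5 (-2.51) and SKIL (-1.47), and early_MGC (9.1% of all genes called) had 0 called by edgeR, where FKBP1A, PCSK5, ZFYVE9 and FOXL2 had an unadjusted p under 0.05 (0.00643, 0.00969, 0.0269 and 0.0392). Late_CC had 4 higher and 0 lower against secondary_GC, where 46% of all genes were called: PMEPA1 (2.75), ZFYVE9 (1.5), SMAD2 (1.19) and the convertase FURIN (0.90). Late_MGC, where 31.8% of all genes were called, had 3 higher, ACVR1 (1.91), SMAD4 (0.85) and FURIN (0.61), and 3 lower, BAMBI (-2.52), PCSK5 (-2.42) and SKIL (-1.13). Without the 3 libraries the calls of PMEPA1 in late_CC and of FURIN in late_MGC were lost.

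As a description over 24 libraries that share their groups, Pearson's r of log2(TMM-scaled CPM + 1) was 0.948 for INHA and FST, 0.875 for INHBA and INHBB, 0.708 for INHA and INHBA, and 0.688 for INHBA and FST. Without late_MGC 3 the last of these was 0.965, and INHA with INHBA was 0.893. Among the 7191 named genes that averaged 10 CPM or more, those most like INHA were FST (0.948), CHRDL1 (0.931) and CHST8 (0.93), and those most like FST were SMAD2 (0.956), NOS2 (0.955) and B3GNT3 (0.952). INHBA was most like PLEK (0.944), IGFBP4 (0.939), which binds insulin-like growth factors, and MTHFD1L (0.939). INHBB was most like F2R (0.909), RESF1 (0.902) and EML4 (0.9). FSTL3 was most like STC1 (0.894), PAK1 (0.855) and CRABP2 (0.846), TGFBR3 like TOP2B (0.89), DDX42 (0.882) and STAG2 (0.881), ACVR2B like SRSF11 (0.897), NSD3 (0.878) and ZNF609 (0.865), and ACVR2A like ATOSA (0.805) and RASA1 (0.763), among others. Without late_MGC 3 ATOSA stood at 0.709 and RASA1 at 0.675 with ACVR2A.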

How the data were processed

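Total RNA of 24 libraries had been amplified with a SMART-Seq v4 low-input kit, per the labels' protocols. The deposited values are raw counts of reads per gene, which the authors made with featureCounts 2.0.0 on exons of an Ensembl ARS-UCD1.2 annotation, per the file headers, without strand, pair or multi-mapping options. Earlier steps used HISAT2 2.1.0, SAMtools 1.10, fastp 0.20.0 and the build bosTau9, per the submitters' processing notes, which state no order. The deposited table also gives summed exon length in bases, used for CPM per kilobase. A column of undetermined reads, 8.3% of all counts, is the 1 column of no sample and was left out of every test. The libraries of secondary_GC and late_MGC are numbered by column order.

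Symbols came from RefSeq genes of ARS-UCD2.0 by position, from spans that were mutual best overlaps and shared 0.5 or more of their union. Symbols were found for 10805 of the 12219 genes averaging 1 CPM or more. Counts were fitted with edgeR 4.0.16 (R 4.3.3; TMM scaling, filterByExpr, robust quasi-likelihood test) over the 5 groups together, with Benjamini-Hochberg adjustment over 14298 genes and a threshold of 0.05. The code was tested on simulated data. The biological coefficient of variation was 42.4%. Alternatives were RLE scaling, no filter, DESeq2 1.42.0, limma-voom (limma 3.58.1), only the groups compared, each library left out, the 3 libraries left out and replicate blocks. The genes named are all 8 members, and of the pathway list those called, up to 4 each way by size where more were called, along with BAMBI, SMAD2, SMAD3, ACVR1B, INHBC and the fifth higher gene in late_CC against late_MGC, chosen after their values were seen. The members, lists and libraries left out were chosen with earlier results of these data known. Reads carry no molecular identifiers, so limits for counts of 0 (3 counts) cover counting error only. For ACVR2A, 1 of the 3 genes most like it is not reported here.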

Additional observations from a re-analysis of the deposited data

Results flagged for a closer look

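The rule for a library far from the rest of its group flags about 1 in 20 independent sets of normal values. Sets of 1 gene in 1 group share libraries here, so their flags cannot be set against that rate. In 5 of 40 such sets, 1 library stood far from the rest. They are FST in early_CC 5, the lowest at 3849 CPM, FST in late_MGC 3, the lowest at 83.0 CPM, FSTL3 in late_MGC 3, the highest at 198 CPM, TGFBR3 in late_CC 3, the highest at 52.7 CPM, and ACVR2A in late_MGC 3, the highest at 21 CPM. TGFBR3 changed differently between stages in cumulus and mural cells, by 1.83 ± 0.53 on the log2 scale (edgeR adjusted p = 0.0105). The column of undetermined reads, used in no comparison, held 344336 counts of the 8 genes.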

How the results depend on the processing

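Over all 8 genes, 9 comparisons and all alternatives, 1198 values kept their direction and side of the threshold, 97 passed it newly, 33 no longer passed and 64 changed sign. The fit without late_MGC 3 and late_CC 3, the fit of the 3 numbered groups without a block and both fits by column number below were added after seeing the data. The cause of the changes was not tested. The number of the 8 genes called in early_MGC against secondary_GC was 1, and 3 with only the groups compared, without the 3 libraries, without late_MGC 3 and without both late_MGC 3 and late_CC 3. In early_CC against secondary_GC it was 0, and in the same order of settings 2, 3, 1 and 3. It was 3 in late_MGC against early_MGC and 5 without the 3 libraries or without both, and 3 against 6 and 6 in late_MGC against secondary_GC. In early_CC against early_MGC it was 1, and 2 with DESeq2, 7 with only the groups compared, 5 without the 3 libraries, 5 without late_MGC 3, 6 without both, 5 with the replicate block and 4 in the numbered groups without it. In late_CC against late_MGC it was 2, and 1 with no filter, 1 with only the groups compared, 4 without the 3 libraries and 4 without both. All genes called in that comparison were 42.1% without the 3 libraries and 41% without both. For the interaction it was 1, and 3 with DESeq2, only the groups compared, without the 3 libraries and without both. Of all genes, the interaction was called for 31.4% with all libraries, 34.9% without the 3 and 36.5% without both, and 3 of 8 lay near these shares. The numbers of all genes called over the settings follow below.

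Leaving out 1 library of the groups compared at a time gave 0 to 1 genes called in early_MGC and 0 in early_CC against secondary_GC, 3 to 5 in late_MGC against early_MGC, 3 to 4 in late_CC against early_CC, 2 to 6 in late_MGC and 4 to 5 in late_CC against secondary_GC, 1 to 2 in early_CC against early_MGC, 1 to 3 in late_CC against late_MGC and 1 to 4 for the interaction. Leaving out late_MGC 3 gave 6 in late_CC against early_CC, where 49.9% of all genes were called. It gave 5 in late_CC against secondary_GC, where 50.3% were. That library is in neither group of these comparisons. Over all genes, 1301 were called in early_MGC against secondary_GC (516 to 2320 over the alternatives), 285 in early_CC against secondary_GC (150 to 1304), 2725 in late_MGC against early_MGC (1612 to 3840), 4548 in late_MGC against secondary_GC (2812 to 5615) and 1871 in early_CC against early_MGC (1222 to 3035). The number was 6457 in late_CC against early_CC (5727 to 7089) and 6577 in late_CC against secondary_GC (5472 to 7225). It was 5673 in late_CC against late_MGC (4659 to 6028) and 4486 for the interaction (3826 to 5168).

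Log2 fold changes of the other sign were, with limma-voom, ACVR2B 0.084 in early_MGC and 0.19 in late_CC against secondary_GC, FSTL3 -1.17 in late_MGC against early_MGC, ACVR2A 0.041 in late_CC against late_MGC, and for the interaction INHBA -0.0095, FST 0.70 and FSTL3 0.70. With no filter, late_CC against late_MGC gave FSTL3 -0.026 and TGFBR3 -0.019. Without the 3 libraries and without both, late_MGC against early_MGC gave FSTL3 -2.44 and -2.35 and TGFBR3 0.024 and 0.17, late_MGC against secondary_GC gave ACVR2A -0.23 and -0.23, late_CC against late_MGC gave TGFBR3 -0.61 and -0.61, ACVR2A 0.29 and 0.29 and ACVR2B -0.037 and -0.036, and the interaction gave FSTL3 1.80 and 1.70.

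With 1 library left out, the log2 fold change ran from -0.25 to 0.45 for ACVR2B in early_MGC against secondary_GC. In early_CC against secondary_GC it ran from -0.64 to 0.18 for INHBB, -0.28 to 0.079 for FSTL3, -0.39 to 0.046 for TGFBR3 and -0.41 to 0.25 for ACVR2A. In late_MGC against early_MGC it ran from -2.35 to 1.18 for FSTL3 and -0.38 to 0.27 for TGFBR3. In late_MGC against secondary_GC it ran from -0.23 to 0.73 for ACVR2A and -0.52 to 0.16 for ACVR2B, and in late_CC against secondary_GC from -0.071 to 0.59 for ACVR2A and -0.31 to 0.47 for ACVR2B. In late_CC against late_MGC it ran from -0.13 to 0.38 for INHA, -0.26 to 3.27 for FSTL3, -0.42 to 0.41 for TGFBR3, -0.30 to 0.38 for ACVR2A and -0.0015 to 0.48 for ACVR2B. For the interaction it ran from -0.078 to 0.56 for INHBA, -0.41 to 0.12 for FST and -1.60 to 1.93 for FSTL3.

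Same-numbered libraries of early_CC, early_MGC and late_CC did not all deviate together. The correlation of deviations was over 0.1 in 4 of 15 same-numbered pairs and 8 of 60 others (medians -0.0056 and -0.0127). Those 4 were above every differently numbered pair, of which the highest had 0.277. The pairs among the libraries numbered 1 had 0.377, 0.328 and 0.382, and early_CC 2 with early_MGC 2 had 0.295. Whether a number marks a shared source is not given in the labels. With the replicate block 6 of 8 genes were called in late_CC against early_CC, and 6 without it in the same groups. The secondary_GC column names carry other numbers than the titles. A replicate block by column number, and the same 4 groups without it, gave 3 and 3 genes in early_MGC, 1 and 1 in early_CC and 5 and 5 in late_CC against secondary_GC. The ranges of all genes called that are given above include the fits with and without blocks. ACVR2B had the other sign with that block in early_MGC (0.043) and without it in late_CC (0.0090). Comparisons with late_MGC had no paired fit, its columns carrying no number. The shallowest library, early_MGC 4, had 8379801 counts, of which 96 were of ACVR2A, 98 of TGFBR3 and 115 of FSTL3.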
